A study of Homo sapiens with 3 samples.

Results

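The genes described here are 32 genes of glycolysis and of the cell's response to low oxygen, measured in 5637 cells, an established human bladder cancer line. They were chosen by name: 17 glycolytic enzymes including the lactate dehydrogenases, 7 transporters and regulators, 7 other targets of hypoxia-inducible factor (HIF), and HIF1A itself. All 32 were found among the 19224 gene symbols of the deposited table, each represented by its transcript of highest total count. Levels are given as RPKM, reads scaled by transcript length and by library total, which can be compared between genes. A mean of at least 1 over the libraries was required for testing; 10153 genes and 28 of the 32 members reached it. The 4 that did not were ALDOC, SLC2A3, CA9 and ANKRD37.

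RNA came from 3 libraries of 5637 cells, all labelled WT and grown in the same serum-containing medium. One received a control siRNA (siNC) and 2 received siRNA against CDCA3 (siCDCA3-1 and siCDCA3-2), a gene of mitotic entry. The labels do not say whether the latter are different siRNAs or repeated cultures, and both carry the same treatment label. No label names a low-oxygen treatment. Counts over all genes summed to 50912733, 40420562 and 62389920 in siNC, siCDCA3-1 and siCDCA3-2, an order kept for all values below. CDCA3 itself had RPKM of 5.52, 0.574 and 1.40. Of 15 epithelial and urothelial markers 10 reached a mean RPKM of 1, with KRT20, UPK1A and UPK3A near 0. The summed RPKM of the 15 was 2628, 2206 and 1803. Of the 10, 1 (KRT7) was higher than siNC in both siCDCA3 libraries (10%, against 23.6% of all genes tested). Another 4 were lower in both (40%, against 27.8%), and 5 went opposite ways (50%, against 48.5%). The 4 were the basal keratins KRT5 (421, 218 and 200) and KRT17 (429, 210 and 138), with KRT19 and TP63. Whether this has a part in the results below was not tested. Leukocyte markers (1 of 8 reached it, summed RPKM 1.42 to 2.71) and fibroblast and endothelial markers (1 of 10, COL1A1, summed RPKM 2.44 to 10.1) were low.

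Glycolysis splits glucose into pyruvate in the cytosol and yields ATP without oxygen; lactate dehydrogenase then turns pyruvate into lactate, which leaves the cell through monocarboxylate transporters. Many steps are served by several isozymes encoded by separate genes. HIF-1 is a transcription factor whose alpha subunit is destroyed in the presence of oxygen, after prolyl hydroxylases mark it for the VHL ubiquitin ligase. When oxygen is short it binds a short core sequence, ACGTG or GCGTG, near genes for glucose uptake, glycolysis, blood vessel growth and pH control. Its protein level is set largely by that degradation, which RNA counts do not measure.

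The promoters of 5 members are shown as examples, chosen after the values were seen, among the members that hold this core and lay on one side of the control in both siCDCA3 libraries. Sequences are from RefSeq (GRCh38.p14), 250 bases before to 50 after a transcription start, 5′ to 3′ along the gene, with matches to ACGTG or GCGTG on either strand in capitals (CACGT and CACGC are the same cores read on the other strand). The windows are chr11:18394313-18394612 (plus strand) for LDHA, chr10:131981874-131982173 (minus strand) for BNIP3, chr9:35673678-35673977 (plus strand) for CA9, chr11:10304823-10305122 (plus strand) for ADM and chr14:61695263-61695562 (plus strand) for HIF1A.
LDHA: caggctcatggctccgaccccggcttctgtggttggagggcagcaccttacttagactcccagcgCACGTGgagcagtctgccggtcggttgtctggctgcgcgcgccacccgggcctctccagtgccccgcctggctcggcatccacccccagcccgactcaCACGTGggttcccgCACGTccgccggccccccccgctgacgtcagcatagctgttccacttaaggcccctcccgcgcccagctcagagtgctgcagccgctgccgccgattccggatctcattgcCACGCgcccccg
BNIP3: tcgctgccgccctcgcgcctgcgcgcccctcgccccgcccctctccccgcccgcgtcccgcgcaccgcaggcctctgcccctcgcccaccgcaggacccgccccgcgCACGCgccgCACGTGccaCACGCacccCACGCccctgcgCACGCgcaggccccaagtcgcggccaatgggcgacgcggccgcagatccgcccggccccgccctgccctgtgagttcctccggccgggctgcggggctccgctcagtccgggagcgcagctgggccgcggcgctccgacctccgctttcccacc
CA9: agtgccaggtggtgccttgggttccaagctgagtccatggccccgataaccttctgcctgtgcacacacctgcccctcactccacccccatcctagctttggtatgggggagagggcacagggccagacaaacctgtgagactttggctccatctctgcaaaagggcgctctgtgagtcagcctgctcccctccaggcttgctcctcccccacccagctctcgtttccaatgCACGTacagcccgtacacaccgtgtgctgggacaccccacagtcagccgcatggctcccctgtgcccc
ADM: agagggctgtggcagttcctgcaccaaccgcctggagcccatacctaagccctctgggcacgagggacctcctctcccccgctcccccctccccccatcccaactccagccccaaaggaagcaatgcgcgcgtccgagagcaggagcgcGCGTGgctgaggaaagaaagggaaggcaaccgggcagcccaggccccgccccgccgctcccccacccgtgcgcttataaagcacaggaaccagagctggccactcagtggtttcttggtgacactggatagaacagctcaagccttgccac
HIF1A: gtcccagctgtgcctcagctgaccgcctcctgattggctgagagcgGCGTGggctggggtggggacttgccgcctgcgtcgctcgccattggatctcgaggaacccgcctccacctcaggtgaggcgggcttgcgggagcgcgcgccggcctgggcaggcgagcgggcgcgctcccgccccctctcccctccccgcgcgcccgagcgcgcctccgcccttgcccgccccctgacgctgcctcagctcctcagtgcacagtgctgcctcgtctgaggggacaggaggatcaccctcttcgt

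The LDHA window held 5 matches to ACGTG, of which 4 come from a pair of palindromes, CACGTG, that match on both strands and are also the core E-box. Its palindromes began 185 and 87 bases before the start. In BNIP3, 1 palindrome and 4 matches to GCGTG lay between 143 and 104 bases before the start. CA9 had a single match that began 18 bases before the start. ADM and HIF1A had 1 GCGTG each, 101 and 204 bases before it. LDHA and HIF1A each have a further promoter in the table, not printed here; that of LDHA also held GCGTG and that of HIF1A held neither core. The table held 55 promoters for 28 of the members; SLC2A3, SLC16A1, VEGFA and NDRG1 had no entry. Either core stood in 36 of the 55 (65.5%), against 48.4% of all 35114 promoters and 61.7% of the 11747 promoters of genes tested here. Counted by itself, ACGTG was in 38.2% of member promoters, 21.4% of all and 26% of those of tested genes. GCGTG was in 22 of the 55 member promoters, 36.5% of all and 49.4% of those of tested genes. Its share in the members was thus below that of tested genes. A match in so short a word is a description of the letters, not a binding site.

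Depletion of CDCA3 was compared with the control to ask which transcripts differ. VEGFA was lower than the control in both siCDCA3 libraries and, ranked by the smaller of the differences in the 2 libraries, was the measured member farthest from it; HIF1A was also lower in both. PGAM1, LDHA, PKM, PGK1, PFKP and HK2 were higher in both, as were PFKFB4, ADM, BNIP3 and EGLN3. SLC2A1, PFKFB3, ENO1, LDHB, PFKL and NDRG1 lay on opposite sides of the control in the siCDCA3 libraries. None of these differences passed the test across all genes. In bulk RNA a lower level in every cell and a low level in some of the cells cannot be told apart. In edgeR (quasi-likelihood, p-values adjusted over 10153 genes by Benjamini-Hochberg), 0 of 28 members passed an adjusted p of 0.05 (adjusted p = 0.9997 for each), where 0.0295% of all genes did. VEGFA alone had an unadjusted p under 0.05, as did 1.32% of all genes, and DESeq2 and limma called 0 members as well. The residual for each gene has 1 degree of freedom, the gap between siCDCA3-1 and siCDCA3-2, which edgeR moderates with 12 prior degrees of freedom shared across genes, and siNC is taken to vary by as much. Missing the threshold therefore says little about whether a gene differed.

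**Figure D1:**
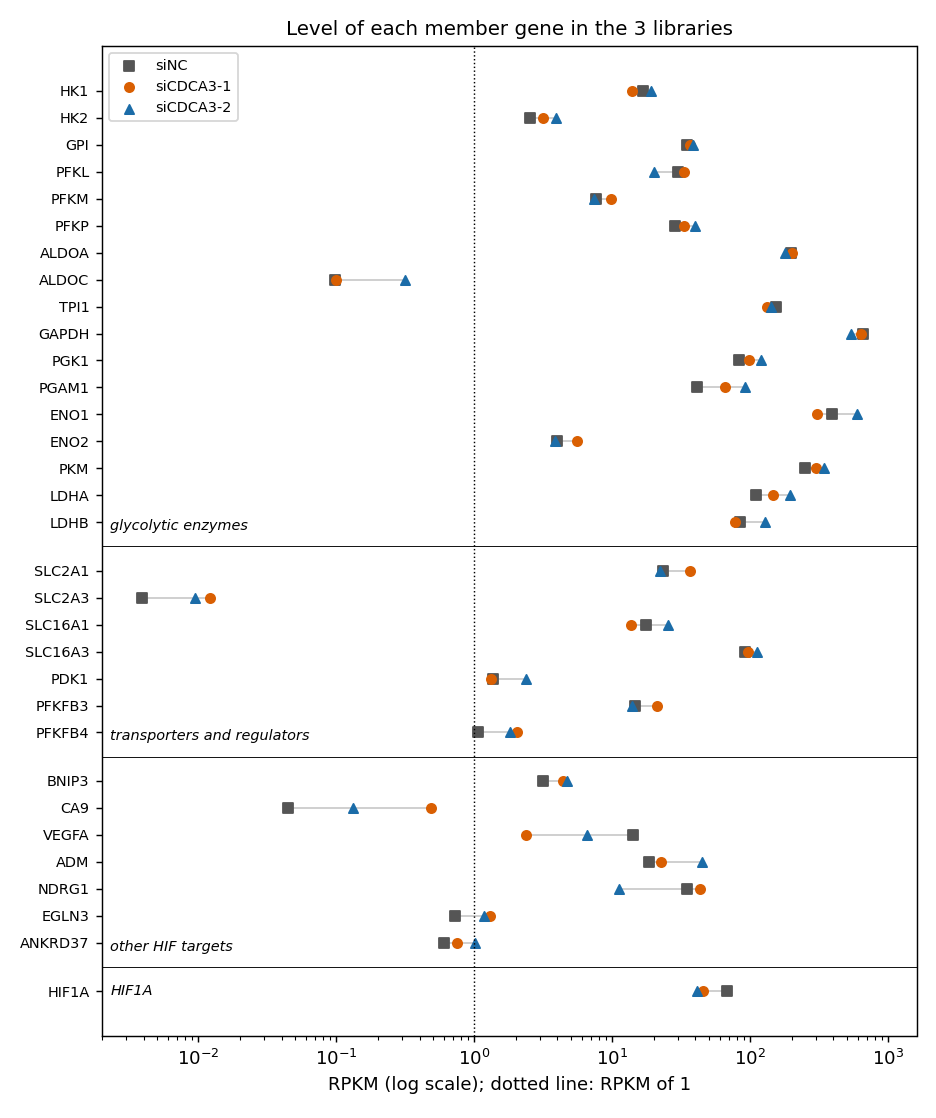
Level of each of the 32 genes in each library, with RPKM on a logarithmic axis, genes grouped by role, and 1 symbol per library. VEGFA lies at 14.2 in siNC against 2.35 and 6.54, and HIF1A at 67.3 against 45.3 and 40.8, while ALDOC, SLC2A3, CA9 and ANKRD37 have a mean below the dotted line at an RPKM of 1.

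Over the 28 measured members, 12 were higher than siNC in both siCDCA3 libraries (42.9%), against 23.6% of all genes tested. Another 4 were lower in both (14.3%, against 27.8%), and 12 went opposite ways (42.9%, against 48.5%). The same siNC library serves as control for siCDCA3-1 and siCDCA3-2, which ties their directions together, and the members were chosen with earlier results known. One member, EGLN3, passed the filter on low values only through its siCDCA3 levels. At least 2-fold from the control in both libraries, on log2(RPKM + 1), was 1 member, VEGFA, on the lower side (0.719% of all genes), and 0 on the higher side (0.0985%). The median log2 difference of the 28 members was 0.214 in siCDCA3-1 and 0.316 in siCDCA3-2, beside -0.067 and 0.046 over all genes.

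**Figure D2:**
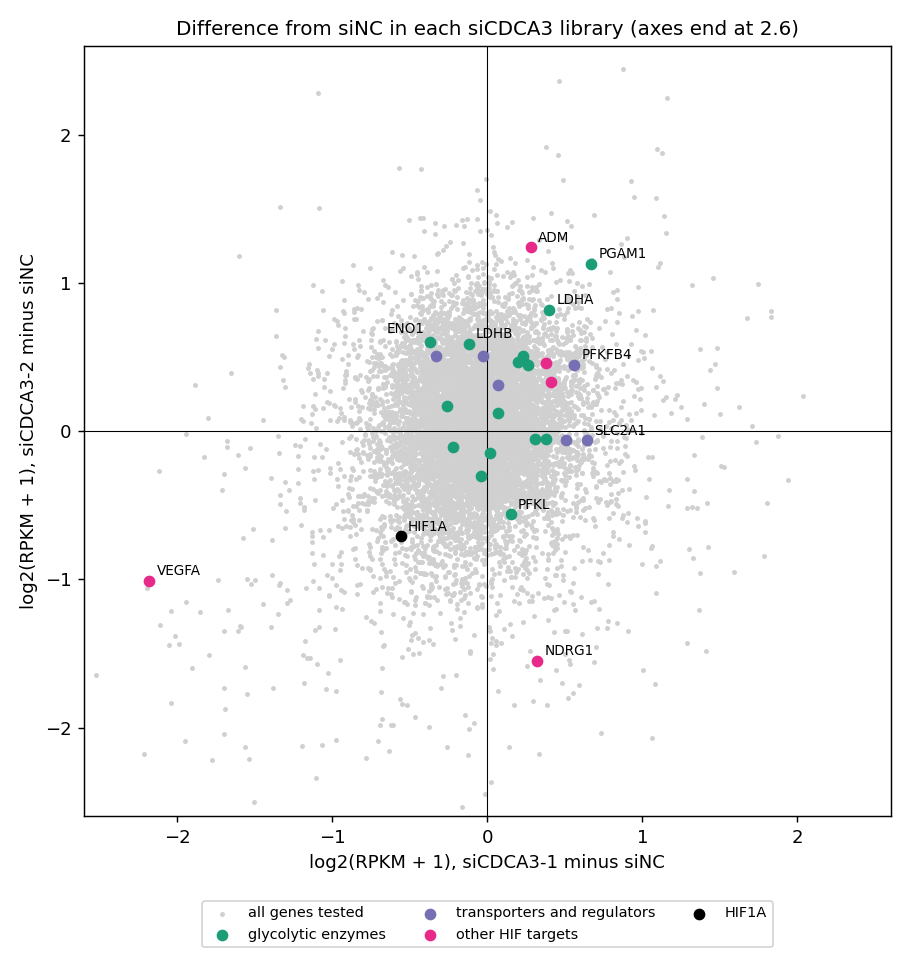
Difference from siNC on the log2(RPKM + 1) scale in siCDCA3-1 (x axis) and siCDCA3-2 (y axis) for the 28 measured members, coloured by role, over all genes tested in grey. VEGFA stands at the lower left (-2.18, -1.01), PGAM1 at the upper right (0.67, 1.13) and NDRG1 at the lower right (0.32, -1.55). The axes end at 2.6 and leave out 30 genes, none of them members.

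Among the 16 measured glycolytic enzymes 7 were above siNC in both siCDCA3 libraries (43.8%, against 23.6% of all genes tested). Another 2 were below it in both (12.5%, against 27.8%) and 7 lay on either side (43.8%, against 48.5%). The 16 enzymes had a median log2 difference of 0.174 in siCDCA3-1 and 0.312 in siCDCA3-2. Their summed RPKM was 2089, 2092 and 2454, close to the control in siCDCA3-1 and above it in siCDCA3-2. GAPDH, ENO1 and PKM had the highest levels in each library.

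The steps that spend ATP come first. HK1, the housekeeping hexokinase that traps glucose as its phosphate, had RPKM of 16.7, 13.85 and 19.0. HK2, the hexokinase that many tumours add, had 2.52, 3.12 and 3.91. HK2 was above the control in both siCDCA3 libraries and HK1 was not, and the share of HK2 in the summed hexokinase RPKM was 13.1%, 18.4% and 17.1%. GPI, which converts glucose 6-phosphate to fructose 6-phosphate, differed little, with 34.97, 36.6 and 38.2.

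Phosphofructokinase commits sugar to glycolysis, and its liver, muscle and platelet isozymes form mixed tetramers. PFKL, the liver type, had 29.9, 33.2 and 20.0. PFKP, the platelet type, had 28.5, 32.9 and 39.8. In siCDCA3-2, PFKP was thus the higher and PFKL the lower, whereas in the other libraries their levels were close. PFKM, the muscle type, had 7.65, 9.71 and 7.32. The share of PFKP in the family was 43.2%, 43.4% and 59.3%, that of PFKL 45.3%, 43.8% and 29.8%, and that of PFKM 11.6%, 12.8% and 10.9%, with a summed RPKM of 66.1, 75.8 and 67.1. The proportions in siCDCA3-1 stayed near those of the control.

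Aldolase cleaves the sugar into a pair of triose phosphates. ALDOA, the form of most tissues, had RPKM of 198.5, 201.7 and 178.7. ALDOC, the brain form, was near the limit of detection, with 21, 17 and 83 counts and RPKM of 0.0975, 0.0989 and 0.313. TPI1, which interconverts the trioses, had 153.1, 131.7 and 141.6, lower in both siCDCA3 libraries.

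The steps that return ATP carried the most abundant members and PGAM1, the measured enzyme farthest above the control in both siCDCA3 libraries. GAPDH, which oxidises glyceraldehyde 3-phosphate and often serves as a reference gene, had RPKM of 654, 636 and 533. It was lower in both siCDCA3 libraries on the deposited scale, but with the TMM scaling that edgeR uses it lay above the control in siCDCA3-1. PGK1, which makes the first ATP, had 83.2, 98.0 and 119, higher in both.

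PGAM1, which moves the phosphate of phosphoglycerate, had RPKM of 41.2, 66.0 and 91.2, from 10037, 12836 and 27365 counts. Both siCDCA3 libraries lay above the control, siCDCA3-2 farther than siCDCA3-1. PGAM1 (NM_002629.3, GRCh38 chromosome 10, 97426191 to 97433444) stood at 160% of the siNC level in siCDCA3-1 and at 221% in siCDCA3-2, where the 95% counting interval ran from 216% to 227%. In edgeR the log2 fold change was 0.93 (standard error 0.53, adjusted p = 0.9997). On the log2(RPKM + 1) scale it was the only measured member at least 1.5-fold above the control in both libraries, a distance that 0.611% of all genes reached; by the plain ratio of RPKM the low but measured genes PFKFB4 and EGLN3 passed it too. On the lower side that distance was reached on the log2(RPKM + 1) scale by 1 member, VEGFA, and by 2% of all genes.

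ENO1, the common enolase, had RPKM of 392, 304 and 596, so the control lay between the siCDCA3 libraries. ENO2, the neuronal form, had 3.999, 5.51 and 3.83, with the order of the libraries turned round. The share of ENO2 in the summed enolase RPKM was 1.01%, 1.78% and 0.638%. PKM, pyruvate kinase, had 248.7, 297 and 341, higher in both siCDCA3 libraries, with an edgeR log2 fold change of 0.37 and a standard error of 0.55.

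Lactate dehydrogenase is a tetramer of A and B chains, of which A is known as the HIF-responsive chain. LDHA (NM_005566.3, GRCh38 chromosome 11, 18394563 to 18408425) had RPKM of 109.5, 144.8 and 194.1, from 31555, 33310 and 68846 counts. LDHB had 84.4, 77.7 and 128. LDHA was above the control in both siCDCA3 libraries, and LDHB was above it only in siCDCA3-2. By edgeR, LDHA had a log2 fold change of 0.63 (standard error 0.54) and LDHB one of 0.28 (standard error 0.53). LDHA made up 56.5%, 65.1% and 60.3% of the summed RPKM of the family, which was 193.9, 222.5 and 321.8.

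**Figure D3:**
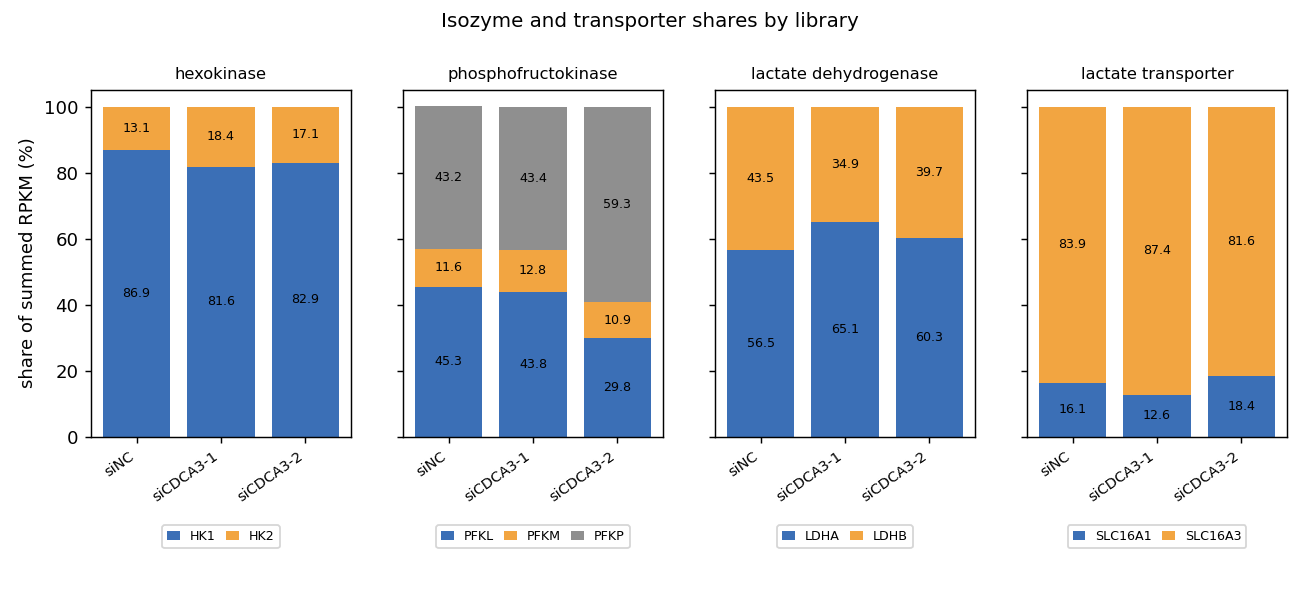
Share of each isozyme or transporter in the summed RPKM of its family, in percent, as stacked bars from 0 for the 3 libraries. The HK2 and LDHA segments are larger in both siCDCA3 libraries than in siNC, the PFKP segment is larger only in siCDCA3-2 (59.3% against 43.2% in siNC), and SLC16A1 lies on both sides of its siNC share.

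Among the 6 measured transporters and regulators, 2 were higher than siNC in both siCDCA3 libraries (33.3%, against 23.6% of all genes tested). Lower in both were 0 (27.8% of all genes), and 4 went opposite ways (66.7%, against 48.5%). The medians of this group were 0.292 and 0.377. SLC2A1, the main glucose carrier of most cancer cells and a classic HIF target, had RPKM of 23.1, 36.5 and 22.2. It stood at 158% of the siNC level in siCDCA3-1 and just below that level in siCDCA3-2. SLC2A3, a high-affinity glucose carrier, was represented by 2, 5 and 6 counts, too few to compare.

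SLC16A1 (MCT1), which carries lactate in either direction, had RPKM of 17.5, 13.7 and 25.4. SLC16A3 (MCT4), the lactate exporter of glycolytic cells, had 90.95, 95.55 and 112.6. SLC16A3 was thus the more abundant carrier in every library and was slightly higher in both siCDCA3 libraries, and its share of the pair was 83.9%, 87.4% and 81.6%.

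PFKFB3 and PFKFB4 make fructose 2,6-bisphosphate, the strongest activator of phosphofructokinase. PFKFB3 had RPKM of 14.5, 21.1 and 13.8, with siCDCA3-1 alone above the control. PFKFB4 had 1.05, 2.02 and 1.80, from 515, 790 and 1085 counts. In siCDCA3-1 it reached 192% of its level in siNC (lower 95% counting bound 172%), and edgeR gave a log2 fold change of 0.88 (standard error 0.63). PDK1, the kinase that keeps pyruvate out of the mitochondria, had 1.37, 1.31 and 2.37, and siCDCA3-1 moved above the control with TMM scaling. SLC2A1 and PFKFB3 therefore shared one pattern, highest in siCDCA3-1, while SLC16A1 and PDK1 were highest in siCDCA3-2.

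The other HIF targets were the most spread. Of 5 measured, 3 were higher in both siCDCA3 libraries (60%, against 23.6% of all genes tested). Another 1 (VEGFA) was lower in both (20%, against 27.8%) and 1 (NDRG1) went opposite ways (20%, against 48.5%). Medians were 0.324 and 0.327. The siCDCA3-1 median is the difference of NDRG1. EGLN3, counted among the 3, passed the filter only through its siCDCA3 levels, and its difference is the siCDCA3-2 median. The other differences in siCDCA3-2 were 0.46 (BNIP3), -1.01 (VEGFA), 1.24 (ADM) and -1.55 (NDRG1). VEGFA, the main growth factor for blood vessels, had RPKM of 14.2, 2.35 and 6.54, from 6780, 897 and 3846 counts. Both siCDCA3 libraries lay well below the control, siCDCA3-1 the lower. VEGFA (NM_001025366.2, GRCh38 chromosome 6, 43770211 to 43786487) in siCDCA3-1 was at 16.6% of its siNC level (95% counting interval 15.4% to 17.8%), and in siCDCA3-2 at 46.1% (44.3% to 47.9%). In edgeR the log2 fold change was -1.70 (standard error 0.55, unadjusted p = 0.008649, adjusted p = 0.9997). The table lists 20 VEGFA transcripts, and all 20 were lower in both siCDCA3 libraries, with log2(RPKM + 1) differences of -2.20 to -2.10 in siCDCA3-1 and about -1.01 in siCDCA3-2. They share most of their reads, so they are not separate measurements.

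ADM encodes adrenomedullin, a peptide that widens vessels. It had RPKM of 18.4, 22.5 and 44.8, from 3810, 3723 and 11447 counts. The level in siCDCA3-1 lay near the control and that in siCDCA3-2 well above it, with an edgeR log2 fold change of 0.86 and a standard error of 0.54. BNIP3, a mitochondrial protein that promotes mitophagy, had 3.15, 4.39 and 4.69, higher in both by similar amounts (edgeR log2 fold change 0.54, standard error 0.61). EGLN3, a prolyl hydroxylase that marks HIF-alpha and is itself induced by HIF, had 0.729, 1.31 and 1.17, from 259, 370 and 511 counts (0.78, standard error 0.70).

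NDRG1, a stress-responsive protein of the differentiation-related NDRG family, split the siCDCA3 libraries more than any other measured member. Its RPKM was 34.5, 43.5 and 11.1, from 15666, 15751 and 6199 counts. It was at 126% of the siNC level in siCDCA3-1, and the counting interval in siCDCA3-2 was 31.2% to 33.1%. In siCDCA3-2, 3.27% of all genes were at least 2-fold lower on the log2(RPKM + 1) scale, and in siCDCA3-1, 1.74% were. NDRG1 and VEGFA were the 2 members in the former set, and VEGFA was the only one in the latter. On the higher side, PGAM1 and ADM were at least 2-fold up in siCDCA3-2, as were 1.42% of all genes, and 0 members were in siCDCA3-1 (0.847%).

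CA9, a cell-surface carbonic anhydrase widely used as a hypoxia marker, was low in all libraries. It had 9, 79 and 33 counts and RPKM of 0.0443, 0.488 and 0.132, so the siCDCA3 libraries lay above the control while staying under an RPKM of 1. The counting interval of its level relative to siNC was 551% to 2493% in siCDCA3-1 and 139% to 708% in siCDCA3-2. ARHGEF39 overlaps CA9 on the opposite strand, and reads of the 2 genes can be told apart only if strand was used in counting, which no source used here states. ANKRD37, a small ankyrin repeat protein, had 74, 73 and 154 counts and RPKM of 0.602, 0.743 and 1.02.

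HIF1A, the oxygen-regulated alpha subunit, was abundant and lower in both siCDCA3 libraries. Its RPKM was 67.3, 45.3 and 40.8, from 35663, 19137 and 26612 counts. The siCDCA3 libraries lay close to each other and apart from the control. HIF1A (NM_001530.3, GRCh38 chromosome 14, 61695513 to 61748258) stood at 67.2% of the siNC level in siCDCA3-1 (lower counting bound 66.0%), and the counting interval in siCDCA3-2 was 59.6% to 61.6%. In edgeR it had a log2 fold change of -0.63 (standard error 0.50, adjusted p = 0.9997). All 3 HIF1A transcripts in the table were lower in both.

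The wider HIF machinery was covered by 14 measured genes. Of these, 5 were above siNC in both siCDCA3 libraries (35.7%, against 23.6% of all genes tested). Another 4 were below it in both (28.6%, against 27.8%) and 5 lay on either side (35.7%, against 48.5%). The medians of the 14 were 0.043 and 0.048. ARNT, the partner that HIF-alpha subunits need to bind DNA, had RPKM of 5.79, 5.07 and 2.28. CITED2, which competes with HIF-1 for its coactivators, had 10.95, 22.2 and 14.02. Some were named for their role, after their values were seen. EPAS1, which encodes HIF-2 alpha, had 20.8, 19.1 and 18.6, VHL had 53.0, 48.6 and 41.3, and EGLN1, the main oxygen-sensing prolyl hydroxylase, had 2.14, 3.16 and 3.52. By edgeR, DESeq2 and limma 0 of the 14 passed, and 0 had an unadjusted p under 0.05 in edgeR.

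A longer list of 36 other reported HIF targets had 30 measured genes, with medians of -0.044 and 0.078. Of the 30, 9 were above siNC in both siCDCA3 libraries (30%, against 23.6% of all genes tested). Another 8 were below it in both (26.7%, against 27.8%) and 13 lay on either side (43.3%, against 48.5%). At least 2-fold lower in both were 2 of the 30, as were 0.719% of all genes, and 0 were 2-fold higher in both. DDIT4, an inhibitor of mTORC1 signalling that other stresses also induce, had RPKM of 382, 134 and 66.7. STC2, a secreted stanniocalcin, had 18.7, 5.08 and 6.74. Their edgeR log2 fold changes were -1.89 (standard error 0.57) and -1.66 (standard error 0.47), each with an adjusted p of 0.9997. By edgeR, DESeq2 and limma 0 of the 30 passed. An unadjusted p under 0.05 was found in edgeR for 2 of the 30, and for 1.32% of all genes. IGFBP3, a secreted binding protein of insulin-like growth factors, was named after its values were seen, for the widest gap between the siCDCA3 libraries in this list, with 152.7, 228.2 and 7.69.

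Pathways that join glycolysis were counted in the same way. Of 12 listed sugar and monocarboxylate transporters outside the members 4 were measured, all sugar carriers of the SLC2A family. All 4 were lower in both siCDCA3 libraries, against 27.8% of all genes tested (medians -0.246 and -0.744). SLC2A6 had RPKM of 25.5, 20.3 and 11.8 and SLC2A12 had 2.96, 2.37 and 0.616. SLC2A8, named after its values were seen, was only just below the control in siCDCA3-2, with 4.72, 3.79 and 4.62. Of 7 other isozymes and partners, 2 were higher in both (28.6%, against 23.6% of all genes) and 2 lower in both (28.6%, against 27.8%). BSG, the chaperone of the lactate transporters, had 225.5, 185.2 and 199.2, and PGAM2, the muscle phosphoglycerate mutase, had 1.44, 2.39 and 1.85.

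Pyruvate entry into the mitochondria was covered by 11 measured genes. Of these, 3 were higher in both siCDCA3 libraries (27.3%, against 23.6% of all genes tested). Another 1 was lower in both (9.09%, against 27.8%) and 7 went opposite ways (63.6%, against 48.5%). PDK3, counted among the 3, passed the filter only through its siCDCA3-2 level, with RPKM of 0.861, 0.874 and 1.52. MPC1, a subunit of the pyruvate carrier, had RPKM of 4.19, 4.31 and 6.35, and PDPR, a regulator of pyruvate dehydrogenase phosphatase, had 1.29, 2.16 and 1.68. The pentose phosphate pathway, which diverts glucose 6-phosphate to make NADPH and ribose, was covered by 7 genes. In both siCDCA3 libraries 4 were higher (57.1%, against 23.6% of all genes) and 1 was lower (14.3%, against 27.8%). PGD had 42.5, 56.0 and 47.5, whereas PGLS, the lactonase of the same branch, had 36.9, 25.1 and 16.0. By edgeR, DESeq2 and limma 0 genes of these lists passed, and 0 had an unadjusted p under 0.05 in edgeR.

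**Figure D4:**
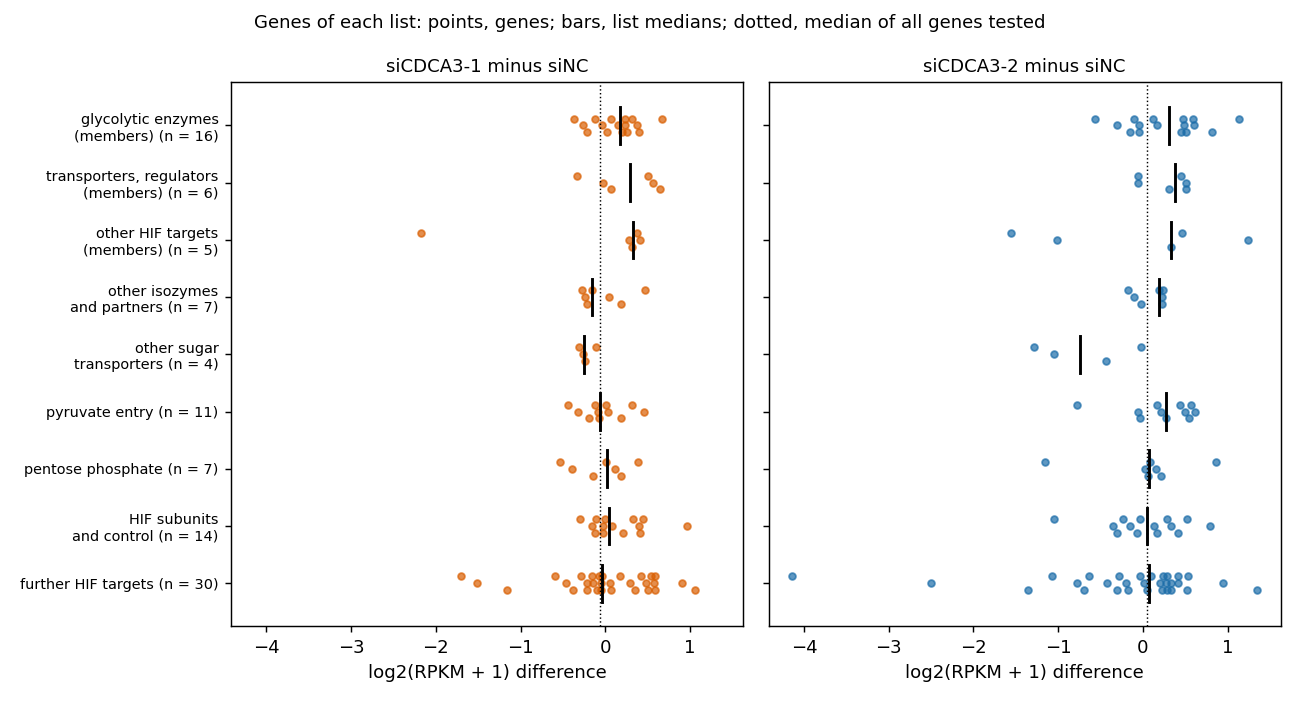
Difference from siNC on the log2(RPKM + 1) scale for the measured genes of 9 lists, siCDCA3-1 on the left and siCDCA3-2 on the right, with 1 point per gene, a bar at each list median and a dotted line at the median of all genes. Medians of the 3 member groups lie to the right of the dotted line in both panels (0.174, 0.292 and 0.324 on the left). For siCDCA3-1 the median of the other HIF targets is the value of NDRG1, which lay at -1.55 in siCDCA3-2. For siCDCA3-2 that median is the value of EGLN3, which passed the filter only through its siCDCA3 levels. Of the remaining genes of that group in siCDCA3-2, BNIP3 and ADM lie to the right of the line and VEGFA and NDRG1 to the left. Medians of the other sugar transporters lie to the left of the dotted line.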

How the data were processed

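For each RefSeq transcript and each of 3 libraries the deposited table holds a raw read count and an RPKM, per the file headers; the authors computed RPKM from the count, the transcript length and 1 total per library. Per the submitters' processing notes, Trimmomatic 0.36, FastQC, HISAT2 and HTSeq were used, and hg38 and mm10 are listed without a role. Symbols turned into dates (103 rows) were restored by accession in all but 1. The transcript with the most counts stood for each gene, since transcripts of a gene share reads. Counts were tested with edgeR 4.0.16 (R 4.3.3): TMM scaling, quasi-likelihood fit of siCDCA3 (n = 2) against siNC (n = 1), two-sided, Benjamini-Hochberg adjustment. Standard errors were obtained by dividing the size of the log2 fold change by the root of its F statistic. The script was tested on simulated data. Nothing in the labels says that the siCDCA3 libraries came from separate cultures, so p-values measure the spread between libraries, which may be technical. Sizes and medians use log2(RPKM + 1), whose pseudocount understates the change of low genes. Counting intervals are exact binomial, at 95%, and cover counting error only. Genes named in full are, per member group, the 4 with the largest difference in the less changed library among those with one direction, and per other list the 2 with the largest mean difference, again among those with one direction; other members are described by role. Gene coordinates are from RefSeq, GRCh38.p14. Members, lists and tests were chosen with earlier results of these data known. Alternatives were DESeq2 1.42.0, limma 3.58.1, median-of-ratios scaling, no filter and a minimum RPKM of 5, the longest transcript, TMM-scaled RPKM, a pseudocount of 0.1, a 1.5-fold threshold and each siCDCA3 library left out.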

Additional observations from a re-analysis of the deposited data

How the results depend on the processing

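Under DESeq2, limma, median-of-ratios scaling, the longest transcript and either other filter, 0 members were called, and every member kept the sign of its log2 fold change; the lowest adjusted p of any member was that of VEGFA, 0.2297 in edgeR without a filter and 0.9997 to 1 elsewhere. No paired analysis was possible because siNC has 1 library. With 1 siCDCA3 library left out no test remains, so these are values only. Of members at least 2-fold from siNC, 0 to 2 were then higher and 1 to 2 lower; at 1.5-fold on log2(RPKM + 1) 1 was higher in both, PGAM1, a count that rests on the pseudocount, since PFKFB4 and EGLN3 also pass by the plain RPKM ratio. Leaving out either library, the enzymes above siNC numbered 10 to 11 and those below 5 to 6, the transporters and regulators 4 and 2, and the other HIF targets 3 to 4 and 1 to 2. With TMM-scaled RPKM, 1 enzyme in place of 2 was lower in both, because GAPDH crossed the control. On that scale 3 transporters and regulators in place of 2 were higher in both, because PDK1 crossed it too. The group medians over the mean of both libraries, 0.146 for enzymes, 0.231 for transporters and regulators and 0.371 for other HIF targets, became 0.174 to 0.312, 0.292 to 0.377 and 0.324 to 0.327 with a library left out. The last rests on few genes: it was 0.378 with TMM scaling, 0.313 without a filter (5 higher in both), 0.514 at a pseudocount of 0.1, and -0.615 at a mean RPKM of 5, where only VEGFA, ADM and NDRG1 are left and 1 is higher in both. At that filter 1 transporter or regulator was higher in both. With a library left out, the difference in isozyme share, in percentage points, ran from -5.3 to -4 for HK1, -15.5 to -1.5 for PFKL and 3.82 to 8.6 for LDHA, and changed sign for SLC16A1 (-3.59 to 2.27) and ENO1 (-0.771 to 0.373). Depth was not the limit for members above an RPKM of 1; SLC2A3 was too low to compare. RefSeq lists pseudogenes named after 16 members, GAPDH, BNIP3 and PGAM1 among them. In GENCODE 29, 16 members overlap an antisense exon. Another gene's exon on the same strand overlaps 9 members, HIF1A, PGK1 and PFKFB4 among them. The counts of all these members are therefore uncertain.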

Other observations

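CDCA3 lies among glycolytic genes on GRCh38 chromosome 12. TPI1 begins 16134 bases from its end, ENO2 begins 63294 bases from it, and GAPDH ends 306427 bases before CDCA3 begins. Against CDCA3 levels of 5.52, 0.574 and 1.40 RPKM, TPI1 had 153.1, 131.7 and 141.6, ENO2 had 3.999, 5.51 and 3.83, and GAPDH had 654, 636 and 533, all in the order siNC, siCDCA3-1, siCDCA3-2. Whether position bears on these values was not tested.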
